A study of Mus musculus with 2 samples.

Results

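The Mir106b-Mir25 and Mir106a-Mir363 clusters are a pair of microRNA gene clusters related by duplication to the Mir17 cluster. Their 9 genes were taken by name from the 1973 microRNA genes of each library: Mir106b, Mir93 and Mir25 on chromosome 5, and Mir106a, Mir18b, Mir20b, Mir19b-2, Mir92-2 and Mir363 on the X chromosome. The material was whole lung of healthy B6NCrl mouse embryos at 15.5 days, with both sexes pooled. Replicate 1 pooled the lungs of 78 embryos and replicate 2 those of 62 embryos. Both pools carry 1 donor identifier, and there is no second condition, so levels were compared between genes within each library. Inserts were shorter than 30 nt.

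A microRNA is cut from a hairpin in a longer transcript, and bases 2 to 8 of the mature strand, the seed, do most of the target recognition. The 3 paralogous clusters encode 4 seed groups, here named after miR-17, miR-18, miR-19 and miR-92. Products with the miR-17 seed are known to repress the cell cycle inhibitor Cdkn1a and favour proliferation. In mice, deletion of the Mir17 cluster leaves the lungs underdeveloped, whereas loss of either paralogous cluster alone gave no obvious developmental defect.

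The sequences below, credited to RefSeq on GRCm38.p6, show why the members form groups. Each is the strand usually taken to be the main product, written 5′ to 3′, with the seed in capitals. The first 5 lines share the seed of miR-17, which Mir17 itself carries.
Mir106b: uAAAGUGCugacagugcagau
Mir93: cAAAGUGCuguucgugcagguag
Mir106a: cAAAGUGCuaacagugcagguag
Mir20b: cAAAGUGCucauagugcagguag
Mir17: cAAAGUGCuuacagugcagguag
Mir25: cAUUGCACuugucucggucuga
Mir363: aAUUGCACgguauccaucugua
Mir92-2: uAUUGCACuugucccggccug
Mir18b: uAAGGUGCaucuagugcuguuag
Mir19b-2: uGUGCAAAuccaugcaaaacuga
Mir25, Mir363 and Mir92-2 share the seed of the miR-92 group, while Mir18b and Mir19b-2 each have a seed of their own within these 9 genes.

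With positions counted from the 5′ end, and the first-named product's base given first, the Mir106a product differs from that of Mir17 at 1 position (A10U). Mir20b differs from Mir20a at 2 (C1U and C10U), and Mir18b from Mir18 at 2 (U18A and U20A). Over the 21 bases that both have, Mir106b differs from Mir106a by U1C, G10A and A20G. Mir93 differs from Mir20b by G10C, U11A and C13A. Mir25 differs from Mir92-2 by C1U, U14C and U18C, whereas Mir25 and Mir363 differ at 13 of 22 positions, all outside the seed. The products of Mir19b-2 and Mir92-2 have the same bases as those of Mir19b-1 and Mir92-1 in the Mir17 cluster.

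Both hairpins of each of these copied pairs are shown because their counts are the least certain here. Capitals mark the longest stretch that the hairpins of a pair share.
Mir19b-2: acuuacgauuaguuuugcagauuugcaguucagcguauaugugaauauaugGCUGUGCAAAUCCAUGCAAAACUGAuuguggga
Mir19b-1: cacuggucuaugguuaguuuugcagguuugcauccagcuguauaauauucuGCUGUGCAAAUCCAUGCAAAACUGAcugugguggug
Mir92-2: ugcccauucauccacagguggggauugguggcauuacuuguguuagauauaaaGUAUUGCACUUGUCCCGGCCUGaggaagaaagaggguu
Mir92-1: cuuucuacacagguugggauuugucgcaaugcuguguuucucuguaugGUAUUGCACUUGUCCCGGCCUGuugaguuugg
The shared stretch is 25 nt in the Mir19b pair and 22 nt in the Mir92 pair, longer than the mature products of 23 and 21 nt. A read that lies inside it fits both places, and the tables set multi-mapped reads apart on a summary line instead of giving them to a gene. Such reads were 31.4% of all reads in replicate 1 and 30.6% in replicate 2. Sharing of at least 20 nt with another precursor was found for 2 of the 9 members, Mir19b-2 and Mir92-2, beside 21.3% of the 357 detected genes.

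The Mir106b-Mir25 cluster spans 498 nt inside Mcm7, the gene of a subunit of the replicative DNA helicase. On the minus strand of chromosome 5 in mm10, Mir106b (ENSMUSG00000065514.1) lies at 138165737 to 138165818, Mir93 (ENSMUSG00000065527.1) at 138165523 to 138165610, and Mir25 (ENSMUSG00000065394.1) at 138165321 to 138165404. Mir106b is intronic in both annotated Mcm7 transcripts that span it. Mir93 and Mir25 are each intronic in all but 1 of the 3 transcripts that span them, and in that transcript they overlap an exon. The hairpins are 126 and 118 nt apart. They are shown with the listed products of both arms in capitals.
Mir106b: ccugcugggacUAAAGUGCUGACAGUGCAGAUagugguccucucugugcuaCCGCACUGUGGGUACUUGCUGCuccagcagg
Mir93: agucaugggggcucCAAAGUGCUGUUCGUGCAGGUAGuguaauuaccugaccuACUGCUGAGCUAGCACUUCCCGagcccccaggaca
Mir25: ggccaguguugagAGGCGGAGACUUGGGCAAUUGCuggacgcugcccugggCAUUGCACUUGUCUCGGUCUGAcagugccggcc
The tables count reads per hairpin, so the share of each arm was not measured.

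The Mir106a-Mir363 cluster spans 875 nt on the minus strand of the X chromosome, outside any annotated gene that contains it. In the direction of transcription Mir106a (ENSMUSG00000065456.1) comes first, at 52742503 to 52742567. Its first 5 bp overlap the end of Kis2, an annotated gene on the same strand. Mir18b (ENSMUSG00000077111.2) follows at 52742331 to 52742413, Mir20b (ENSMUSG00000076041.1) at 52742113 to 52742192 and Mir19b-2 (ENSMUSG00000065473.1) at 52741983 to 52742066. Mir92-2 (ENSMUSG00000065613.1) lies at 52741838 to 52741928 and Mir363 (ENSMUSG00000070106.1) at 52741693 to 52741767. The gaps between neighbouring hairpins were 46 to 138 nt.

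Replicate 1 held 5354530 gene counts and replicate 2 held 6489390, so 1 count was worth 0.187 and 0.154 CPM, counts per 1000000 counts in genes. The floor of 3 counts equalled 0.560 CPM in replicate 1 and 0.462 CPM in replicate 2. MicroRNAs of lung compartments were abundant: Mir143 of smooth muscle, Mir126a of endothelium and the epithelial Mir429 and Mir200c had mean levels of 10967 to 79294 CPM. Those of heart (Mir208a), liver (Mir122) and erythroid cells (Mir451a) had 374 to 515 CPM, while Mir124a-1 of neurons, which has near copies in the genome, had 0 counts. The lung genes named were the highest of their genomic clusters where they have one. Mir145a was 74.8-fold below Mir143, Mir200a 15.6-fold below Mir429 and Mir141 7.82-fold below Mir200c.

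All 9 members reached at least 10 counts in each library and are called detected, as were 18.1% of the 1973 genes. None of the 9 had a read on the opposite strand in either library, whereas 10.4% of detected genes did. Mir93, whose product is known to repress Cdkn1a, had 7820 and 9783 CPM in replicates 1 and 2. Mir106b, which acts on the same target, had 6118 and 6508 CPM. These were the highest members, at ranks 24 and 31 among all genes by mean level. Mir25, known to repress the pro-apoptotic gene Bcl2l11, had 440 and 438 CPM, rank 124. Thus the order within the Mir106b-Mir25 cluster was Mir93, Mir106b and Mir25 in both libraries. Mir93 exceeded Mir106b by 1.39-fold (log2 ratio 0.47 ± 0.17, SD, n = 2), and Mir106b exceeded Mir25 by 14.4-fold (log2 ratio 3.84 ± 0.067).

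In the Mir106a-Mir363 cluster, Mir106a had the most reads, with 681 and 609 CPM in replicates 1 and 2. Mir20b, the other member with the miR-17 seed, had 367 and 384 CPM. Mir363, at the 3′ end of the cluster, had 374 and 324 CPM. Mir20b was thus lower than Mir363 in replicate 1 and higher in replicate 2, and their levels did not differ beyond the replicate spread (log2 ratio of Mir20b over Mir363, 0.11 ± 0.19, SD, n = 2). Mir92-2, whose product miR-92a is known from blood vessels, had 228 and 182 CPM. Mir18b had 34.9 and 27.9 CPM, from 187 and 181 reads. Mir19b-2 was the lowest of the 9, with 5.42 and 6.47 CPM from 29 and 42 reads. Because Mir92-2 and Mir19b-2 share their product with the Mir17 cluster, as shown in the hairpins above, their low counts may leave reads out. How many was not tested.

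**Figure D1:**
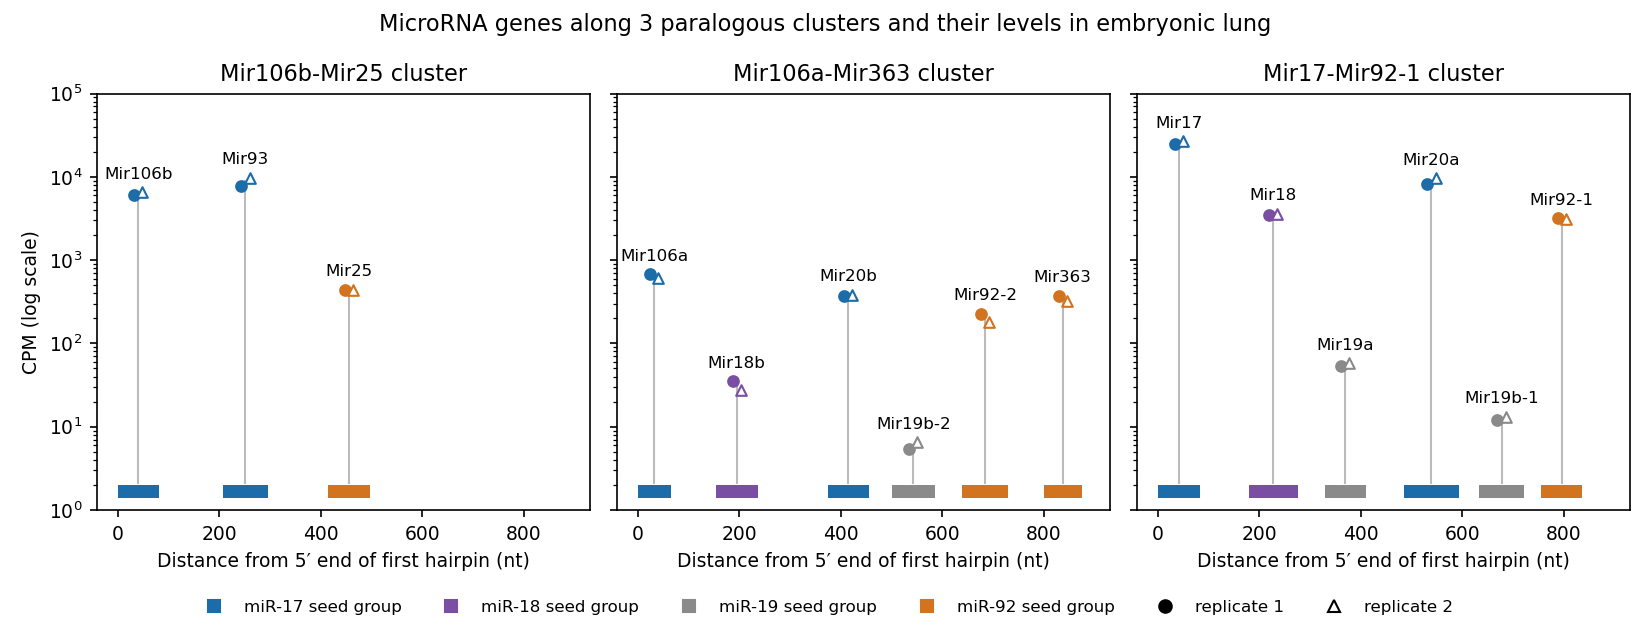
Levels of the microRNA genes along the 3 clusters: the x axis is the distance in nt from the 5′ end of the first hairpin, the y axis CPM on a log scale, bars at the bottom are hairpins drawn to length, circles replicate 1 and triangles replicate 2. Mir93 and Mir106b stand at 6118 to 9783 CPM, above all 6 genes of the Mir106a-Mir363 cluster, whose levels run between 5.42 and 681 CPM.

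Across both clusters, the order of mean levels was Mir93 (8802 ± 1388 CPM), Mir106b (6313 ± 275 CPM), Mir106a (645 ± 50.5 CPM), Mir25 (439 ± 1.13 CPM), Mir20b (375 ± 11.9 CPM), Mir363 (349 ± 34.9 CPM), Mir92-2 (205 ± 32.4 CPM), Mir18b (31.4 ± 4.97 CPM) and Mir19b-2 (5.94 ± 0.747 CPM; SD, n = 2 each). Mir20b and Mir363 were the only neighbours in this order whose replicate values overlapped. Mir93 exceeded Mir19b-2 by 1477-fold (log2 ratio 10.53 ± 0.047). Since a read covers a whole product of 21 to 23 nt, counts were not divided by gene length. A difference in how readily 2 sequences are ligated or amplified would be the same in both libraries and would not show in the SD. In whole lung, fewer cells of a type and less RNA per cell cannot be told apart.

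**Figure D2:**
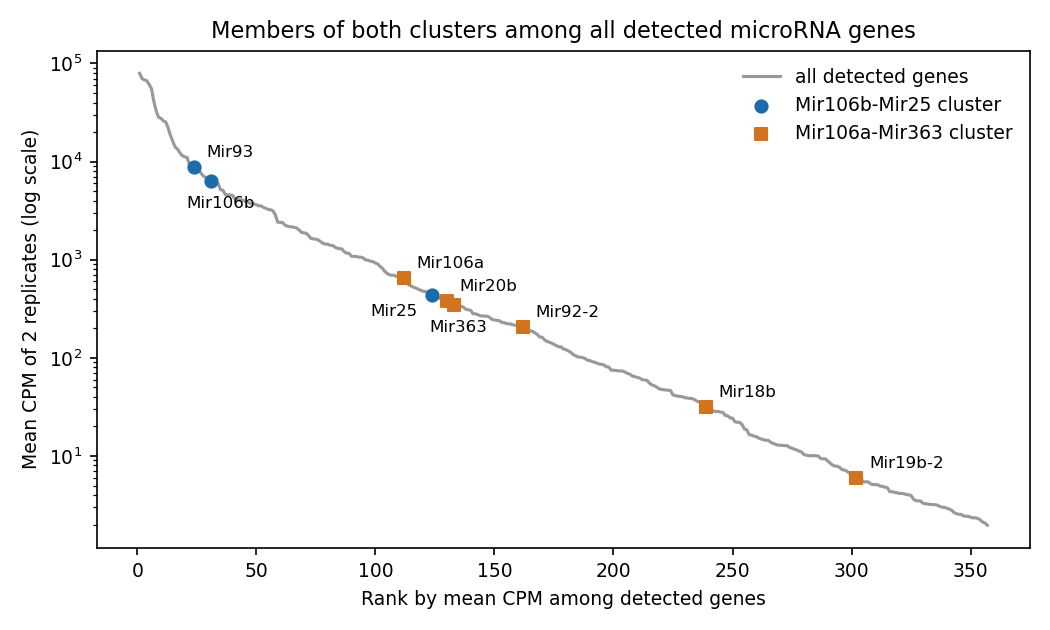
Mean CPM of the 357 detected genes on a log scale against their rank; circles mark the Mir106b-Mir25 cluster and squares the Mir106a-Mir363 cluster. Mir93 and Mir106b hold ranks 24 and 31, while the X-linked members run from rank 112 (Mir106a) to rank 302 (Mir19b-2).

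The main comparison set the clusters against each other within each library. The Mir106b-Mir25 cluster held 1.44% of all gene counts in replicate 1 and 1.67% in replicate 2, whereas the Mir106a-Mir363 cluster held 0.169% and 0.153%. The cluster in Mcm7, with 3 genes, thus stood above the X-linked cluster, with 6 genes, by 8.51-fold in replicate 1 and 10.9-fold in replicate 2. The log2 ratio was 3.27 ± 0.25 (SD, n = 2), so the difference was larger than the spread between replicates. An exact 2-sided test by sign flips within libraries gave p = 0.5, the smallest that 2 libraries allow, and cannot pass a threshold of 0.05. The Mir17-Mir92-1 cluster, the paralog in Mir17hg on chromosome 14, held 3.997% and 4.33%. The Mir106b-Mir25 cluster stood at 0.373 times its share (log2 ratio -1.42 ± 0.073) and the Mir106a-Mir363 cluster at 0.0387 times (log2 ratio -4.69 ± 0.18), with p = 0.5 by the exact sign flips in each case. The X-linked and Mir17-Mir92-1 sums include genes with copied products, and reads set apart as multi-mapped would not show in the SD. Without Mir92-2, Mir19b-2, Mir92-1 and Mir19b-1 the 3 log2 ratios were 3.47 ± 0.24, -1.31 ± 0.064 and -4.78 ± 0.17, in the same order. How many reads were missing was not tested.

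Matched members of the clusters differed by unequal amounts. Mir106b exceeded Mir106a by 8.99-fold and 10.7-fold in replicates 1 and 2 (log2 ratio 3.29 ± 0.18, SD, n = 2). Mir93 exceeded Mir20b by 21.3-fold and 25.5-fold (log2 ratio 4.54 ± 0.18). The gap was far smaller for the miR-92 seed: Mir25 exceeded Mir363 by 1.18-fold and 1.35-fold (log2 ratio 0.34 ± 0.14). Mir25 also exceeded Mir92-2, by 1.93-fold and 2.41-fold (log2 ratio 1.11 ± 0.23), a fold that rests on a gene with a copied product. All 4 pairs had the Mcm7 member higher in both libraries, by more than the SD of the log2 ratio.

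Against the Mir17 cluster, each X-linked member with a counterpart was below it in both libraries. Mir106a stood at 0.0272 and 0.0227 times Mir17 in replicates 1 and 2 (log2 ratio -5.33 ± 0.19, SD, n = 2). Their products differ only by A10U, and whether reads of one were counted at the other was not tested. Mir18b stood at 0.0101 and 0.00772 times Mir18 (log2 ratio -6.82 ± 0.27), the widest gap of these 5 pairs. Mir20b stood at 0.0446 and 0.0398 times Mir20a (log2 ratio -4.57 ± 0.12). For the genes with copied products, Mir92-2 stood at 0.0713 and 0.0585 times Mir92-1 (log2 ratio -3.95 ± 0.20), and Mir19b-2 at 0.446 and 0.488 times Mir19b-1 (log2 ratio -1.10 ± 0.092). The smallest gap was thus between genes at 5.42 to 13.3 CPM that have the same product. Reads of that product may be left out at both, so this gap is not on a par with those of unshared products.

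The Mcm7 members were set against the Mir17 cluster in the same way. Mir93 was level with Mir20a, at 0.9498 and 1.01 times its counts (log2 ratio -0.03 ± 0.067, SD, n = 2), a difference within the replicate spread. Mir106b stood at 0.245 and 0.242 times Mir17 (log2 ratio -2.04 ± 0.010). Mir25 stood at 0.138 and 0.141 times Mir92-1 (log2 ratio -2.84 ± 0.023), a ratio that rests on a gene with a copied product. Reads of Mir92-1 set apart as multi-mapped would not show in this SD, and how many were missing was not tested.

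**Figure D3:**
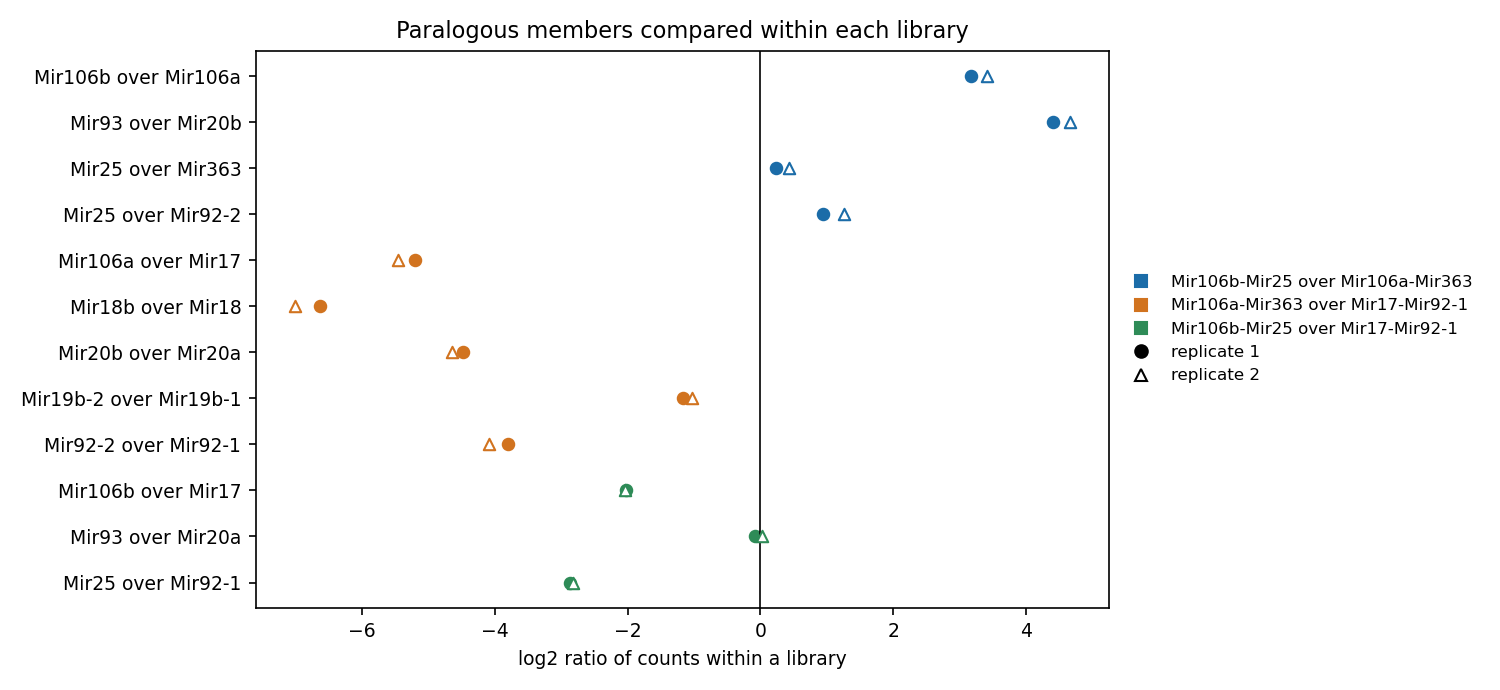
Log2 ratio of counts between paralogous members within each library, circles for replicate 1 and triangles for replicate 2, with the line at equal counts. Mcm7 members lie right of the line against X-linked members, most for Mir93 over Mir20b (log2 4.41 and 4.67), X-linked members lie left of it against the Mir17 cluster, and Mir93 over Mir20a lies on it.

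Seed groups were then summed within each cluster, with each gene placed by the product shown above. The sums are of reads per hairpin, so reads of the other arm were not separated. Mir106b and Mir93, with the miR-17 seed, made up 96.9% and 97.4% of the Mir106b-Mir25 cluster's counts in replicates 1 and 2, and Mir25 made up the rest. In the Mir106a-Mir363 cluster the miR-17 seed made up 62.0% and 64.7%, and Mir92-2 and Mir363 together 35.6% and 33.0%. Mir18b added 2.07% and 1.82% and Mir19b-2 added 0.321% and 0.422%. The miR-17 seed over the miR-92 seed was 34.3-fold in the Mir106b-Mir25 cluster (log2 ratio 5.10 ± 0.16, SD, n = 2) and 1.85-fold in the Mir106a-Mir363 cluster (log2 ratio 0.89 ± 0.12). The difference between these log2 ratios was 4.21 ± 0.042. Without the copied Mir92-2, an alternative chosen after seeing the data for this difference, the X-linked log2 ratio was 1.55 ± 0.090 and the difference was 3.55 ± 0.073. For the miR-17 seed the Mcm7 cluster exceeded the X-linked cluster by 14.8-fold (log2 ratio 3.88 ± 0.21). For the miR-92 seed the Mcm7 cluster had the lower sum, 440 and 438 CPM against 602 and 507 CPM in the X-linked cluster (log2 ratio -0.33 ± 0.17). That direction turned when the copied Mir92-2 was left out, to a log2 ratio of 0.34.

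**Figure D4:**
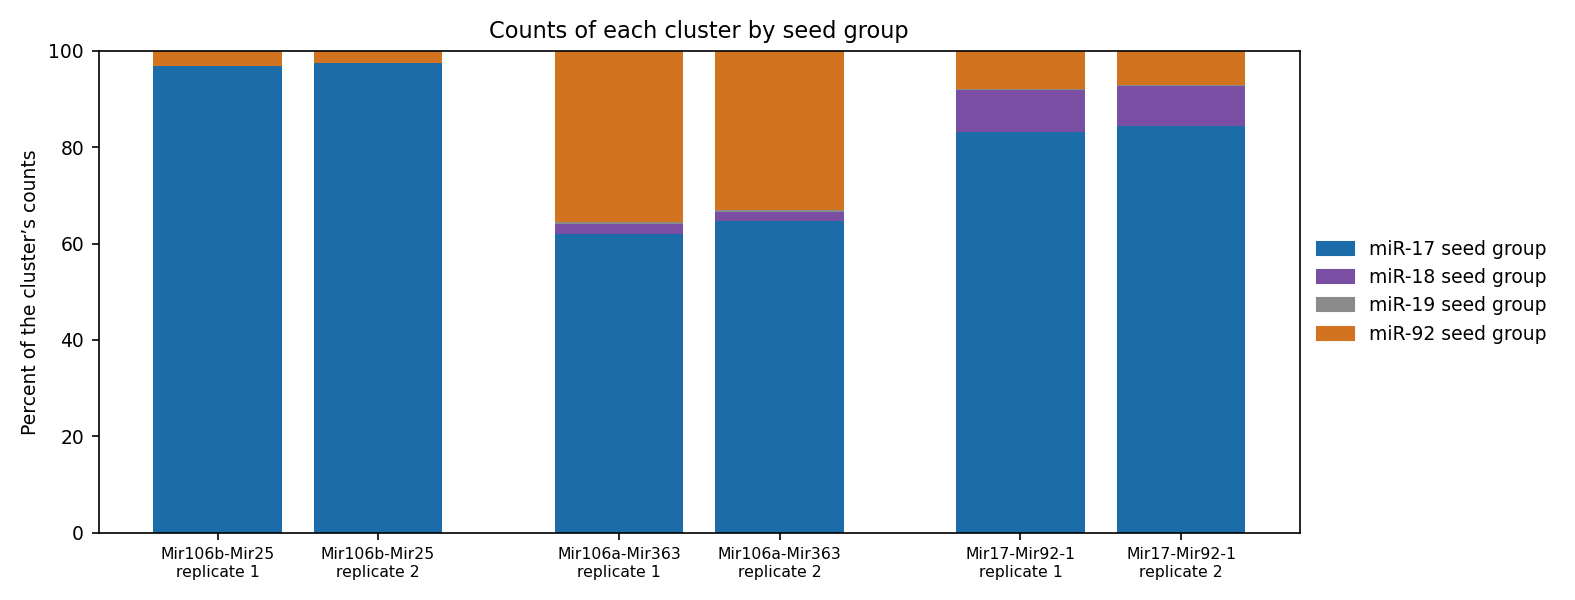
Percent of each cluster's counts by seed group, with 1 bar per library and the 3 clusters from left to right. The miR-92 group takes 35.6% and 33.0% of the Mir106a-Mir363 bars, beside 3.06% and 2.62% of the Mir106b-Mir25 bars and 7.998% and 7.19% of the Mir17-Mir92-1 bars.

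Over the 3 clusters together, the Mir106b-Mir25 cluster supplied 29.6% ± 0.980 of the hairpin counts of the miR-17 seed group, the Mir106a-Mir363 cluster 2.01% ± 0.231 and the Mir17-Mir92-1 cluster 68.4% ± 0.749 (SD, n = 2). Of the hairpin counts of the miR-92 seed group, the Mir106b-Mir25 cluster supplied 10.6% ± 0.298, the Mir106a-Mir363 cluster 13.3% ± 1.21 and the Mir17-Mir92-1 cluster 76.1% ± 0.915. The 22 nt that Mir92-2 and Mir92-1 share hold the whole product with the seed. What part of the reads counted at these 2 genes carries the seed was not tested. The X-linked share includes the copied Mir92-2 and the Mir17-Mir92-1 share is that of the copied Mir92-1, and Mir25 exceeded Mir363 alone (log2 ratio 0.34 ± 0.14). Mir18b supplied 0.882% ± 0.164 of the hairpin counts of the miR-18 seed group, and Mir18 the rest. Mir19b-2 had 7.98% ± 0.574 of those of the miR-19 seed group, the rest being counted at Mir19a and Mir19b-1. That share rests on 29 and 42 reads of Mir19b-2 in replicates 1 and 2. Because Mir19b-2 and Mir19b-1 have the same product, reads of both may be left out. Outside the clusters, RefSeq lists 4 other mouse genes with one of these seeds, and all 4 were in the table. Mir92b, with the miR-92 seed, had 2054 and 1962 CPM in replicates 1 and 2, above Mir25, Mir363 and Mir92-2. Mir32, with the same seed, had 218 and 224 CPM. Mir367 and Mir6383 had 0 counts, which allows levels of up to 0.560 CPM in replicate 1 and 0.462 CPM in replicate 2.

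The summed counts of the 2 clusters differed between the pools in opposite directions, beside a median difference of 1.10-fold in either direction over the 357 detected genes. Replicate 2 over replicate 1 was 1.16-fold for the Mir106b-Mir25 cluster (log2 ratio 0.22, 95% exact binomial interval 0.21 to 0.23) and 0.908-fold for the Mir106a-Mir363 cluster (log2 ratio -0.14, interval -0.18 to -0.10). Mir93 carried most of the first difference, at 1.25-fold (log2 ratio 0.32, interval 0.31 to 0.34), while Mir25 was level at 0.996-fold. Of the 9 members, 2 had an interval above 0 and 4 an interval below 0, beside 19.6% and 25.2% of the 357 detected genes. Those above were Mir93 and Mir106b, and those below were Mir106a, Mir18b, Mir92-2 and Mir363. Against the direction of the X-linked sum, Mir20b (log2 ratio 0.065) and Mir19b-2 (log2 ratio 0.26) were higher in replicate 2, with intervals that included 0. None of the 9 differed by more than 1.5-fold, a limit passed by 9.80% of detected genes. At 1.2-fold Mir93, Mir18b and Mir92-2 passed, beside 26.9% of detected genes, and at 2-fold none did, beside 2.52%. The intervals compare 2 libraries and cover counting error only.

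The genes closest in mean level to each member, as the nearest above and below in mean log2 CPM over the 2 libraries, lay outside the 3 clusters, with 1 exception, Mir20a. Mir93 lay between Mir20a of the Mir17 cluster (8233 and 9643 CPM) and Mir21a (8982 and 8423 CPM). Mir106b lay between Mir127 (6570 and 6328 CPM) and Mir744 (6313 and 6092 CPM). Mir106a lay between Mir374b (645 and 679 CPM) and Mir34c (576 and 602 CPM). Mir25 lay between Mir16-2 and Mir671, Mir363 between Mir665 and Mir669o, Mir92-2 between Mir700 and Mir31, Mir18b between Mir190a and Mir212, and Mir19b-2 between Mir1948 and Mir325. Mir20b lay between Mir208a (573 and 255 CPM) and Mir122 (470 and 278 CPM), microRNAs of heart and liver that varied far more between the pools than Mir20b (367 and 384 CPM). Because these 18 neighbours were picked for closeness in mean log2 CPM, small differences from their member followed from the choice. Only for Mir671 below Mir25 and Mir190a above Mir18b was the difference larger than the SD of the log2 ratio. Of the neighbours, Mir190a, Mir16-2 and Mir669o share at least 20 nt with another precursor, so their counts may leave reads out.

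The hairpins themselves differed in base composition. GC content was 57.3%, 55.7% and 63.1% for Mir106b, Mir93 and Mir25, against 38.1% (Mir19b-2) to 47.3% (Mir92-2) in the X-linked cluster. These are neighbouring hairpins at 2 loci, and how often other clusters differ as much was not tested. The median over the 1005 hairpins in the RefSeq table was 51.7%, and 50.5% over the 309 of detected genes. The predicted folding energy per base was -0.50, -0.53 and -0.43 kcal/mol for Mir106b, Mir93 and Mir25, against -0.27 (Mir18b) to -0.49 (Mir19b-2) in the X-linked cluster, so these ranges overlapped. The median over the table was -0.41 kcal/mol, and -0.435 kcal/mol over the hairpins of detected genes. Mir25, at -0.427 kcal/mol, lay between these 2 medians.

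Spread within a cluster was set beside that of other microRNA clusters in the genome. The highest member exceeded the lowest by 19.9-fold in the Mir106b-Mir25 cluster (log2 ratio 4.32 ± 0.23, SD, n = 2) and by 109-fold in the Mir106a-Mir363 cluster (log2 ratio 6.77 ± 0.29). The median was 19.4-fold over the 41 groups of neighbouring precursors with gaps of at most 10000 bp and 2 or more detected members. By this measure the Mcm7 cluster ranked 20 of 41 and the X-linked cluster 9. The ranks were not adjusted for the number of detected members, 3 in the Mcm7 cluster and 6 in the X-linked cluster. A group with more members has more room for a wide spread. The lowest X-linked member was Mir19b-2, with 29 and 42 reads and a copied product. When genes that share 20 nt with another precursor were left out of every group, a choice made after seeing the data, Mir106a exceeded Mir18b, then the lowest X-linked member, by 20.6-fold (log2 ratio 4.37 ± 0.12). The Mcm7 cluster kept its 19.9-fold, the median over the 26 groups left was 16.0-fold, and the clusters ranked 12 (Mcm7) and 11 (X-linked).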

How the data were processed

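Per the labels, small RNA from lungs of mouse embryos was sequenced as 2 libraries, biological replicates of 1 group. The authors deposited raw read counts per microRNA gene on mm10 with annotation M4, per the labels and the readme files. Aligner and counter, with their settings, were not given in the sources used here. Counts on the annotated strand (column 3) were used. The summary lines, with the reads that mapped to several places, stayed out of the totals, so products with copies may be undercounted.

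CPM values used each library's sum of gene counts as the total. Gene names, positions and hosts came from GENCODE M21, which matched 1894 of 1973 identifiers, and sequences from the RefSeq table for GRCm38.p6, which held all 15 hairpins named here. Genes that reached 10 counts in each library are called detected. Clusters, paralogs and seed groups (bases 2 to 8 of the listed product) were compared through log2 ratios of counts within each library, with the SD over 2 replicates and exact sign flips. With 1 group no count model was fitted. Replicates were compared by log2 ratios with 95% exact binomial intervals. Intervals and the floor of 3 counts cover counting error only, since the reads carry no recorded molecular identifiers.

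The genes named were the 9 members, the 6 genes of the Mir17-Mir92-1 cluster, other genes with a member's seed, and the genes next to each member in mean level. The members and lists were chosen with earlier results of these data known. The alternatives used unstranded counts, each replicate alone, other totals and minimum counts, TMM factors of edgeR 4.0.16, size factors of DESeq2 1.42.0, other fold limits, and members with shared sequence left out. The replicate ratios with their intervals, and a planted log2 ratio of sums, were tested on simulated counts with counting error only. Spread between pools and loss of multi-mapped reads were not simulated. Python 3.11.15, scipy 1.17.1, R 4.3.3 and RNAfold 2.7.2 were used.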

Additional observations from a re-analysis of the deposited data

How the results depend on the processing

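Counts without regard to strand repeat the main ratios, since no gene of the 3 clusters had reads on the opposite strand. Each replicate alone gives 1 of the 2 values averaged. The rules on shared stretches and on copied products left out the same 4 genes. Agreement under these settings was therefore largely fixed in advance and is no independent check. Of 73 log2 ratios recomputed under the alternatives, 70 kept their direction. The exceptions were Mir93 over Mir20a, which was 0.02 in replicate 2 alone, and the miR-92 seed in the Mir106b-Mir25 over the Mir106a-Mir363 cluster, whose log2 ratio turned to 0.34 without the genes that share 20 nt or a mature sequence (Mir92-2, Mir92-1, Mir19b-2 and Mir19b-1). Because that removes Mir92-2 from the sum, Mir363 alone was left on the X-linked side. Without these genes the Mir106b-Mir25 over Mir17-Mir92-1 log2 ratio was -1.31, the miR-17 over miR-92 seed ratio in the Mir106a-Mir363 cluster 1.55 (log2), and the shares were 0.140% for the Mir106a-Mir363 cluster, 3.85% for the Mir17-Mir92-1 cluster and 0.0349% for the miR-92 seed of the X-linked cluster. Chosen after seeing the data, the same omission gave 3.55 for the Mir106b-Mir25 minus Mir106a-Mir363 difference of that seed ratio and 4.37 for the highest over the lowest X-linked member (both log2). With all reads as the total, the Mir106b-Mir25, Mir106a-Mir363 and Mir17-Mir92-1 shares were 0.738%, 0.0764% and 1.98%. With Mir143 left out of the total, the Mir106a-Mir363 and Mir17-Mir92-1 shares were 0.175% and 4.52%. Counts without regard to strand gave 0.0426% for Mir25. At a fold limit of 1.2 between replicates, 3 of 9 members passed, against 0 at 1.5. Mir25, level between the pools, changed sign under TMM (log2 0.02) and size factors (log2 0.01). Use of each replicate alone could not end a detection, because it only drops the demand on the other library. At a minimum of 100 counts Mir19b-2 was not called and 5 of 6 X-linked members were. Depth limits Mir19b-2 most, with 29 and 42 reads. No paired analysis was possible because the study has 1 group.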

Other observations

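Mir19a, in the Mir17-Mir92-1 cluster, had 54.0 and 57.5 CPM in replicates 1 and 2, and its hairpin shares no 20 nt with another precursor. Mir92-1, the next gene above it in level within that cluster, stood 56.6-fold higher (log2 ratio 5.82 ± 0.091, SD, n = 2). The Mir19a product differs from that of Mir19b-1 and Mir19b-2 at 1 position (U11C, counted from the 5′ end). Mir19b-2 and Mir19b-1, whose products are copies of each other, had mean levels of 5.94 and 12.7 CPM. Mir19a exceeded Mir19b-1 by 4.39-fold (log2 ratio 2.13 ± 0.025). The part of uncounted multi-mapped reads in these levels was not tested.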
